A study of Mus musculus with 32 samples.

Results

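The stathmin family was examined as the 4 genes Stmn1, Stmn2, Stmn3 and Stmn4, found by symbol among the 32285 genes of the series. The family was chosen by measured values of these data, the higher Stmn4 CPM in Chd8-deficient progenitors, so the difference between genotypes in progenitors is described here without a test. Single-cell RNA had been profiled in the dorsal telencephalon, the embryonic wall that becomes the cerebral cortex, of C57BL/6J mouse embryos. WT embryos had both copies of Chd8, the gene of a chromatin remodeller, and Chd8+/- embryos (het) had 1 intact copy. Each genotype gave 4 embryos, M1 and M2 (male) and F1 and F2 (female), at 4 embryonic days (E12.5, E14.5, E16.0, then E17.5), 32 embryos in all with a library each. WT and het embryos of the same litter and sex had been matched as pairs. Which embryos form a pair is not stated, and same-named embryos of a stage were read as one. What all groups share is the removal of the medial wall, where the hippocampus forms, and 3′ capture with the v2 chemistry of 10x Genomics.

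Stathmins are small phosphoproteins that bind tubulin dimers and thereby limit microtubule growth, and phosphorylation of the protein releases the tubulin. Stmn1 (stathmin, Op18) is cytosolic and found in proliferating cells as well as in neurons. Stmn2 (SCG10), Stmn3 (SCLIP) and Stmn4 (RB3) carry an added N-terminal stretch that anchors them to Golgi and vesicle membranes, and they are known as neuronal genes of growing axons and dendrites. Stmn2 is a classical target of the repressor REST, which keeps neuronal genes silent outside neurons.

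The genes lie apart in the mouse genome (build GRCm38, GENCODE M21), and all are protein-coding. Stmn1 (ENSMUSG00000028832) spans chr4:134468320-134473843 on the plus strand, Stmn2 (ENSMUSG00000027500) chr3:8509360-8561606 on the plus strand, Stmn3 (ENSMUSG00000027581) chr2:181306459-181314500 on the minus strand, and Stmn4 (ENSMUSG00000022044) chr14:66344296-66361680 on the plus strand. Chd8 is on the same chromosome as Stmn4, 14.1 Mb away. The coding sequences run to 149 codons in Stmn1, 179 in Stmn2, 180 in Stmn3 and 203 in Stmn4, and aligned coding bases were between 64.6% (Stmn3 and Stmn4) and 73.6% (Stmn2 and Stmn3) identical. The stretch of coding sequence most alike in the family is shown because it is where the members are hardest to tell apart. It is 75 bases long and lies within a single coding exon of each gene: exon 4 of Stmn1 (chr4:134472844-134472918, plus strand), exon 4 of Stmn2 (chr3:8554832-8554906, plus strand), exon 4 of Stmn3 (chr2:181307293-181307367, minus strand) and exon 6 of Stmn4 (chr14:66357886-66357960, plus strand). Capitals mark the 50 bases shared by all 4 genes, and each sequence reads 5′ to 3′ along its own strand.
Stmn1: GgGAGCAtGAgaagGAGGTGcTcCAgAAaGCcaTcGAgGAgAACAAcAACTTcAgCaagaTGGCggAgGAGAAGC
Stmn2: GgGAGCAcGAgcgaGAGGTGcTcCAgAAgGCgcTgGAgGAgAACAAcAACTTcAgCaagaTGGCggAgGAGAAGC
Stmn3: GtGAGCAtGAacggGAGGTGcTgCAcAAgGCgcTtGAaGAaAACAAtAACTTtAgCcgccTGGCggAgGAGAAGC
Stmn4: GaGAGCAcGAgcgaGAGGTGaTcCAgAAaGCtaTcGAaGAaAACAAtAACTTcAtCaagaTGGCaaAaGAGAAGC
The longest identical run between annotated transcripts was 43 bases, between Stmn1 and Stmn2, and 14 to 21 bases in the other pairs. The stretch is coding sequence, whereas 3′ capture reads mostly come from near the transcript end. The miRNA gene Gm23634 lies inside Stmn1 on the same strand.

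After filtering, 138226 cells were retained, between 2399 and 6951 per library. The median depth of a library lay between 4017 and 10727 UMIs per barcode, a UMI standing for a captured RNA molecule. At E12.5 the WT libraries had medians from 8762 to 10677 and het M2 one of 10727, whereas het M1, F1 and F2 were shallower (6158, 4166 and 6131). At E17.5 the WT medians were only 4119 to 5484, so every comparison of these stages below also compares depths. Which cells hold a gate-gene UMI depends on depth too. Libraries shared at most 1.3% of their barcodes in any of 496 pairings. Chd8 CPM, in Sox2-, Eomes- and Neurod6-detected cells alike, was lower in het than in WT in 15 of 16 pairs, the exception being F1 at E17.5. The labels do not say which part of Chd8 was altered, so this check reaches only as far as the captured 3′ end. Along the first principal component of the Sox2-detected sums at E17.5, WT M1, het M1 and het F1 lay on one side and the other 5 libraries on the other. At E12.5 (61.3% of the variance) the shallower het M1, F1 and F2 lay on one side, and het M2 with the 4 WT libraries on the other, at the stage where Stmn4 and Stmn1 differed most between genotypes. At E14.5 and E16.0 male and female embryos lay apart. Each library is 1 embryo, so p-values below between stages or genotypes measure the spread between embryos. Those between sets of cells of the same embryos measure how the difference within an embryo varied among embryos.

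Cells were gathered by the gate genes of the neuronal lineage. Sox2-detected cells (at least 1 UMI of Sox2) stand for radial glia, Eomes-detected cells for intermediate progenitors and Neurod6-detected cells for excitatory neurons, with 53936, 31668 and 84838 cells. A cell could enter several sets: in WT at E12.5, 16.1% of Sox2-detected cells also had a Neurod6 UMI, and at E17.5 44.7%. The sets carried their markers, but the Eomes-detected set also carried those of neurons. In WT at E12.5 the summed radial glia markers reached 3177 to 3855 CPM in Sox2-detected and 1554 to 2024 CPM in Neurod6-detected cells, and the summed excitatory neuron markers 613 to 735 and 3623 to 4483 CPM. Eomes-detected cells had 2914 to 3649 CPM of intermediate progenitor markers and 3152 to 3267 CPM of excitatory neuron markers. On average 61.2% of them at E12.5 and 83.6% at E17.5 held a Neurod6 UMI in WT, so this set is called by its gate gene. Levels are CPM, the UMIs of a gene relative to all UMIs of the set in a library on the usual scale. "Sox2-only", "Eomes-only" and "Neurod6-only" cells had UMIs of exactly 1 of the 3 gate genes, so that no cell was counted in more than 1 of these sets. Endothelial and microglial cells (at least 3 markers of either type and no UMI of the 3 gate genes, 605 cells), which are not of this lineage, served as reference for RNA that comes from outside a cell.

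**Figure D1:**
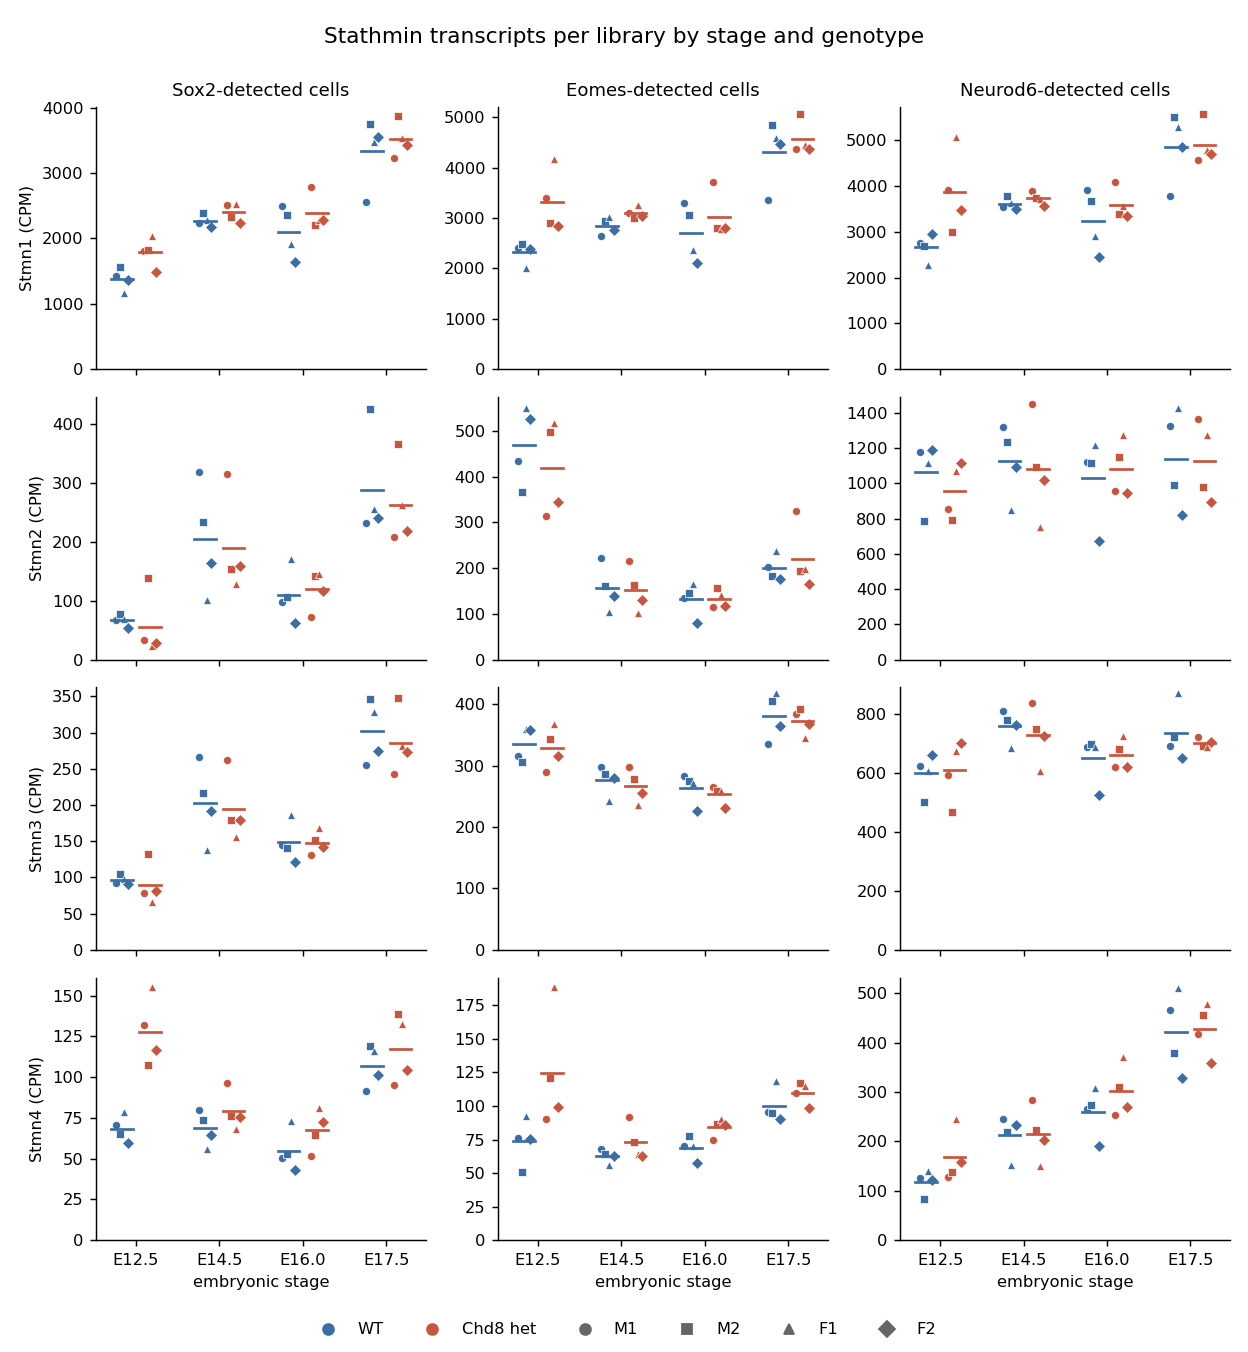
CPM (linear axis) of each stathmin gene in Sox2-, Eomes- and Neurod6-detected cells, by stage and genotype. Points are libraries and bars are means of 4; Stmn4 in Sox2-detected cells at E12.5 lies between 59.4 and 78.8 CPM in WT and between 107.5 and 155 CPM in het libraries.

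In WT cortex all 4 stathmins were higher in Neurod6-only neurons than in Sox2-only progenitors, in 16 of 16 libraries each. Averaged over stages, the log2 difference of Stmn2 was 4.21 (SE 0.17, adjusted p = 9.66e-24), that of Stmn3 2.89 (SE 0.08, adjusted p = 2.38e-29), that of Stmn4 2.43 (SE 0.07, adjusted p = 1.90e-29) and that of Stmn1 1.13 (SE 0.04, adjusted p = 1.25e-25), by edgeR's quasi-likelihood test with the library as a block. The test called 83% of 14299 genes in this contrast, so a call alone does not set the family apart, and the median over all genes was 0.03. The size of the Stmn2 value also depends on its low Sox2-only level at E12.5, given next.

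The contrast between Neurod6-only and Sox2-only cells was smaller at E17.5 than at E12.5 for 3 members and larger for Stmn4. At E12.5 Stmn2 reached 2508 CPM in Neurod6-only and 20.95 CPM in Sox2-only cells, and at E17.5 1514 and 376 CPM, a ratio of 4.02. The level of 20.95 CPM was below the 105.5 CPM of Stmn2 in reference cells (95% exact Poisson interval 90.2 to 123, for counting error only). Single WT reference libraries ranged from 44.6 to 166 CPM. A reference that held more Stmn2 than these cells cannot set a floor for them. How much of the 20.95 CPM comes from outside the cells was not tested, so no fold is given for Stmn2 at E12.5. Stmn3 went from 1241 and 69.1 CPM (ratio 18.0) to 874 and 311 CPM (ratio 2.81). Stmn1 went from 3615 and 1233 CPM (ratio 2.93) to 5032 and 2757 CPM (ratio 1.83). For Stmn4 the ratio went the other way, from 252 and 69.5 CPM (3.63) to 549.6 and 109.7 CPM (5.01), with 8.72 at E16.0. The difference of the log2 contrasts, E17.5 minus E12.5, was −2.55 for Stmn3 (adjusted p = 2.25e-12), −0.56 for Stmn1 (0.000110) and 0.58 for Stmn4 (0.0104), by edgeR's quasi-likelihood test, which called 41.8% of genes. For Stmn4 the adjusted p was 0.0749 with DESeq2 and 0.0646 without WT M1 at E17.5. In CPM, Stmn2 and Stmn3 were lower at E17.5 than at E12.5 in Neurod6-only cells and higher in Sox2-only cells. Over the same stages, 8 interneuron markers went from between 3.63 and 32.7 to between 201 and 806 CPM in sum in Sox2-detected cells, and 5 oligodendrocyte-lineage markers from between 1.31 and 1.67 to between 207 and 474 CPM. Stmn2 at E17.5 read 141 CPM in Sox2-detected cells without interneuron-marker UMIs and 103 CPM in those with Mki67 or Top2a UMIs, against 288 CPM in all of them. Depth was lower at E17.5 as well, at 5399 against 10507 UMIs per cell in Sox2-only and 4490 against 8365 in Neurod6-only WT cells (means of library medians). The part of these other cells and of depth in the contrasts was not tested.

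**Figure D2:**
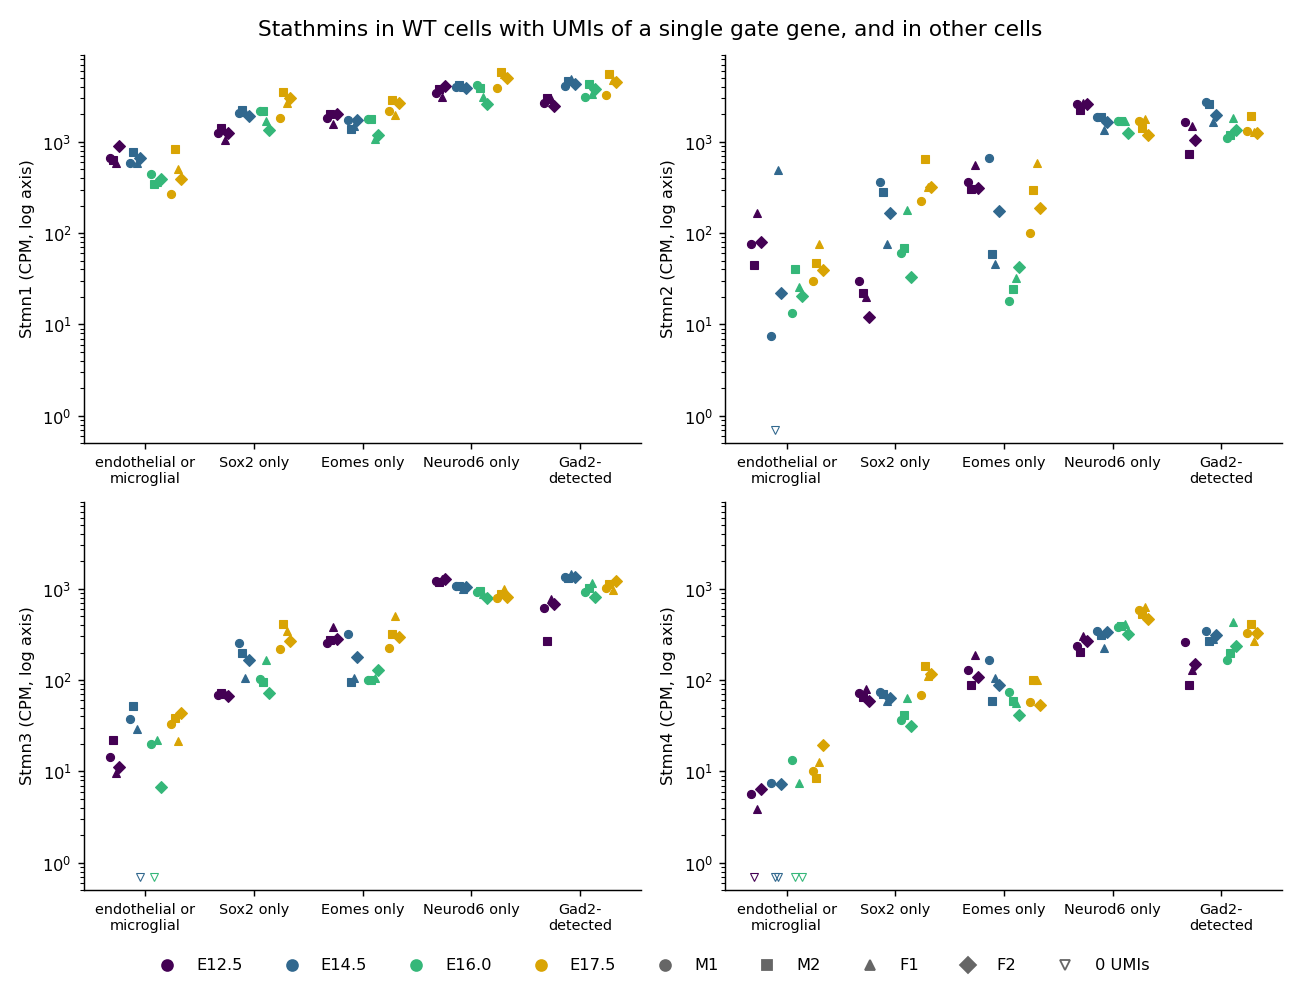
CPM (log axis) of each stathmin gene in WT libraries by stage, in endothelial and microglial reference cells, in cells with UMIs of only Sox2, only Eomes or only Neurod6, and in Gad2-detected interneurons. Open triangles mark libraries at 0; Stmn2 at E12.5 is lower in Sox2-only cells (mean 20.95 CPM) than in the pooled reference cells (105.5 CPM).

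Eomes-only cells differed from Sox2-only cells at E12.5 more than at E17.5. At E12.5 each member was higher in Eomes-only than in Sox2-only cells in 4 of 4 WT libraries, with ratios of 1.5 for Stmn1 (1851 against 1233 CPM), 4.29 for Stmn3 (296 against 69.1) and 1.84 for Stmn4 (128 against 69.5). Stmn2 was at 385 CPM in Eomes-only cells, against 20.95 CPM in Sox2-only cells. At E17.5 the ratios were 0.879 for Stmn1, 0.774 for Stmn2, 1.08 for Stmn3 and 0.708 for Stmn4. Stmn2 then read 291 CPM in Eomes-only and 376 CPM in Sox2-only cells, so its Eomes-only level was lower and its Sox2-only level higher than at E12.5. Stmn3 read 336 and 311 CPM, both above the level at E12.5. The marker sums that were higher at the later stage in Sox2-detected cells stand beside this contrast too, and their part was not tested. The difference between the stages was −2.01 on the log2 scale for Stmn3 (adjusted p = 4.29e-07), −1.36 for Stmn4 (0.00385) and −0.75 for Stmn1 (1.58e-05), by edgeR's quasi-likelihood test, which called 7.28% of genes. Averaged over stages, where 37.5% of genes were called and the median of all genes was −0.14, Stmn3 was higher in Eomes-only cells by 0.50 (SE 0.10, adjusted p = 8.28e-05) and Stmn4 by 0.32 (SE 0.12, adjusted p = 0.0315). Stmn2 was at 0.55 (SE 0.23, adjusted p = 0.0555) and Stmn1 at −0.13 (SE 0.04, adjusted p = 0.0116). These small averages rested on settings: with DESeq2's size factors Stmn1 was at −0.03 (adjusted p = 0.577) and Stmn2 at 0.65 (0.0291). Stmn2 passed as well with DESeq2, without the count filter, without doublet removal and without the cell filter, but was at 0.021 (adjusted p = 0.978) with at least 2 UMIs of the gate genes required. Leaving out any of 9 libraries (WT M1 or F2 at E12.5, M1 or M2 at E14.5, M1, M2 or F2 at E16.0, M2 or F1 at E17.5) ended the call for Stmn1 (adjusted p up to 0.114), and leaving out WT F1 at E12.5 ended that for Stmn4 (0.0604). The Eomes-only sets were small, with 171 WT cells at E17.5. Where 6 libraries were left out singly (WT M1 at E12.5, M2 or F1 at E14.5, F1 at E16.0, M1 or M2 at E17.5), Stmn2 passed the threshold, with an adjusted p down to 0.0141.

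Over time, Stmn1, Stmn2 and Stmn3 rose in Sox2-detected cells. Depth went the other way, from a mean library median of 10480 UMIs per WT cell at E12.5 to 6220 at E17.5. The 3 increases from E12.5 to E17.5 passed the threshold in each of 12 alternative settings, thinning to 2000 UMIs among them. The part of depth was not tested. In WT Sox2-detected cells Stmn1 read 1419, 1570.1, 1170.5 and 1367 CPM in M1, M2, F1 and F2 at E12.5 and 2561, 3744, 3470.3 and 3546 CPM at E17.5, and the stages did not overlap. Group means were 1382 ± 165, 2265 ± 91, 2103 ± 398 and 3330.3 ± 525 CPM over the 4 stages in order (SD, n = 4 each). The increase from E12.5 to E17.5 came to 1.11 on the log2 scale (SE 0.13, adjusted p = 1.05e-08 by edgeR's quasi-likelihood test), in a comparison that called 59.1% of 13817 genes. Stmn2 rose by 1.96 (SE 0.41, adjusted p = 0.000155), from 66.9, 77.0, 69.3 and 52.7 CPM to 231, 425, 256 and 239.6 CPM. The change came to 3.99 in Sox2-only cells and to 1.02 without cells holding interneuron-marker UMIs, and passed the threshold in both. The level at E12.5 was under the pooled 105.5 CPM of reference cells in every WT library, though single reference libraries ranged from 44.6 to 166 CPM. These values are read as no exact folds. Its course was not steady: the group means were 66.5 ± 10.1, 204 ± 93.8, 109 ± 45.3 and 288 ± 91.9 CPM (SD, n = 4). Stmn3 followed the same order of stages, at 96.8 ± 6.4, 203 ± 53.5, 149 ± 27.5 and 302 ± 43.2 CPM (SD, n = 4), and rose by 1.48 (SE 0.18, adjusted p = 2.52e-08).

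Stmn4 rose least in the Sox2-detected cells, and its increase depended on the gate. Its means were 68.4 ± 8.2, 68.5 ± 10.5, 54.9 ± 12.7 and 107 ± 12.9 CPM (SD, n = 4), and the log2 fold from E12.5 to E17.5 was 0.49 (SE 0.16, adjusted p = 0.0124, edgeR's quasi-likelihood test). With at least 2 UMIs of Sox2 required it was −0.12 (adjusted p = 0.546), without cells holding interneuron-marker UMIs 0.07 (0.664), in Sox2-only cells 0.48 (0.0582), and without WT M2 or F1 at E17.5 0.38 (0.0724) or 0.39 (0.0615). After thinning to 2000 UMIs it was 0.90 (adjusted p = 0.00121), the largest value over 12 settings. Markers of other cells moved with stage in this set. Beside the interneuron and oligodendrocyte-lineage markers given above, the 11 excitatory neuron markers went from between 613 and 735 CPM at E12.5 to between 1398 and 1737 CPM at E17.5 in sum. Without cells holding interneuron-marker UMIs, the log2 changes of Stmn1, Stmn2 and Stmn3 still passed the threshold. The part of the other markers was not tested.

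Stmn1, Stmn2 and Stmn3 rose without overlap in the first and the last interval in Sox2-detected cells. Between E12.5 and E14.5, WT groups in Sox2-detected cells separated without overlap for Stmn1 (ratio 1.64), Stmn2 (3.07) and Stmn3 (2.10), as 25.2% of genes did in that direction, and between E16.0 and E17.5 for all 4 members (ratios of 1.58, 2.63, 2.03 and 1.95), as 9% of genes did. Between E14.5 and E16.0, 0 of the 4 separated in Sox2-detected cells, where 18.3% of genes did in either direction. The same held in Eomes-detected cells (18.8% of genes) and in Neurod6-detected cells (24.9% of genes). With such shares, 0 of 4 is near what any 4 genes gave. In Sox2-detected cells Stmn2 went from 204 to 109 CPM in that interval (ratio 0.536) and Stmn3 from 203 to 149 CPM (0.731), with overlap.

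In Eomes-detected cells Stmn1 rose and Stmn2 fell. Stmn1 went from a mean of 2317 to 4309 CPM, a log2 change of 0.77 (SE 0.14, adjusted p = 4.50e-05), and Stmn2 from 469.6 ± 84.7 to 199.99 ± 27.2 CPM (SD, n = 4), a change of −1.36 (SE 0.22, adjusted p = 7.64e-06), by edgeR's quasi-likelihood test, with 50% of genes called. Stmn2 had read 434, 367, 550.4 and 527 CPM at E12.5 and read 202, 183, 237 and 177 CPM at E17.5, with no overlap between the stages. With at least 2 Eomes UMIs required the change was −2.28. In this set the fall lay in the first interval, where the ratio was 0.334 and 13.4% of genes fell without overlap. From E16.0 to E17.5 Stmn2 rose again, from 132 to 200 CPM (ratio 1.52). Stmn3 had ratios of 0.826 in the first and 1.45 in the last interval. In Eomes-only cells the means of Stmn2 went from 385 to 235, 29.3 and 291 CPM over the 4 stages. Of neighbouring stages only E12.5 and E14.5 overlapped, but E17.5 (99.6 to 578 CPM) also overlapped E12.5 (307.5 to 554 CPM). Stmn3 (0.07, SE 0.10, adjusted p = 0.588) and Stmn4 (0.32, SE 0.16, adjusted p = 0.107) did not pass. In Eomes-only cells neither Stmn1 (0.29, adjusted p = 0.226) nor Stmn2 (−0.53, adjusted p = 0.677) passed, and Stmn4 was at −0.80 (adjusted p = 0.0788). Stmn4 passed when WT F1 or het F1 at E12.5 was left out (0.43 and 0.31, adjusted p = 0.0428 and 0.0429), and after thinning to 2000 UMIs (0.42, adjusted p = 0.0343). It also passed without doublet removal (0.45, adjusted p = 0.0299), without the cell filter (0.45, adjusted p = 0.03) and without the 3 shallower het libraries at E12.5 (0.31, adjusted p = 0.0492).

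Stmn4 was the member with the steepest increase in neurons. In WT Neurod6-detected cells it read 125, 83.6, 141 and 121 CPM at E12.5, 246, 219.5, 152 and 233 CPM at E14.5, 266, 274, 308 and 190.3 CPM at E16.0, and 466, 378, 509.6 and 328 CPM at E17.5. The groups at E12.5 and E14.5 did not overlap, as for 20% of genes that were higher at the later stage, nor did those at E16.0 and E17.5 (4.11% of genes). The log2 change from E12.5 to E17.5 was 1.76 (SE 0.22, adjusted p = 8.04e-08) and stayed between 1.07 (Neurod6-only cells) and 1.80 over 12 alternative settings, by edgeR's quasi-likelihood test or DESeq2. Stmn1 rose by 0.79 (SE 0.15, adjusted p = 4.65e-05), from a mean of 2673 to 4861 CPM, in a comparison that called 59.9% of 14582 genes, and by 0.42 (adjusted p = 0.0122) in Neurod6-only cells. Between E12.5 and E17.5 neither Stmn2 (0.02, SE 0.21, adjusted p = 0.937) nor Stmn3 (0.22, SE 0.13, adjusted p = 0.153) passed in the whole set. Stmn3 was higher at E14.5 (758 CPM) than at E12.5 (597 CPM) without overlap, as were 20% of genes, and the other steps of both genes overlapped. In Neurod6-only cells, which exclude neurons that still hold Sox2 or Eomes UMIs, they fell by 0.79 (adjusted p = 5.27e-05) and by 0.56 (adjusted p = 1.92e-05) on the log2 scale.

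Within the Sox2-detected set, cells with a UMI of the cell cycle genes Mki67 or Top2a were set against cells with none. The set is not of radial glia alone, as 16.1% of its WT cells at E12.5 and 44.7% at E17.5 held a Neurod6 UMI. Cells without cycle-gene UMIs read Stmn2 at 209 CPM at E12.5, where Sox2-only cells read 20.95 CPM. The part of neurons in this contrast was not tested. Stmn1, known from dividing cells, was higher in the cycling cells, with a log2 difference of 0.17 (SE 0.02, adjusted p = 6.70e-07) and in 13 of 16 WT libraries. Its mean was 1385 against 1369 CPM at E12.5, 2251 against 2246 at E14.5, 2254 against 1833 at E16.0 and 3487 against 3160 at E17.5. At E14.5 it was higher in 2 of 4 libraries. The neuronal members were lower. Stmn2 was lower in 16 of 16 libraries, with means of 29.9 against 209 CPM at E12.5, 37.6 against 407 at E14.5, 38.7 against 231 at E16.0 and 103 against 491 at E17.5. Its cycling level was under the 105.5 CPM of reference cells at E12.5 and under their 61.0 CPM at E14.5, so no fold averaged over stages is given. Stmn3 was lower in 16 of 16 as well, by a log2 difference of −1.30 (SE 0.04, adjusted p = 2.35e-21), by edgeR's quasi-likelihood test with the library as a block, which called 66.6% of 13455 genes.

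Stmn4 differed from Stmn2 and Stmn3 at E12.5. Cycling cells had 69.5 CPM and the others 64.7 CPM at that stage (ratio 1.07, higher in 3 of 4 libraries), whereas Stmn2 had 29.9 against 209 CPM and Stmn3 77.1 against 174 CPM. Later, Stmn4 was lower in cycling cells in 12 of 12 libraries, with ratios of 0.472, 0.430 and 0.269 at E14.5, E16.0 and E17.5. Averaged over stages the log2 difference was −0.97 (SE 0.05, adjusted p = 9.53e-15). A test of the difference between stages was not made for this contrast. Cells without Mki67 or Top2a UMIs may still divide, and they were shallower (8172 against 11514 UMIs per cell, the mean of library medians in WT at E12.5).

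**Figure D3:**
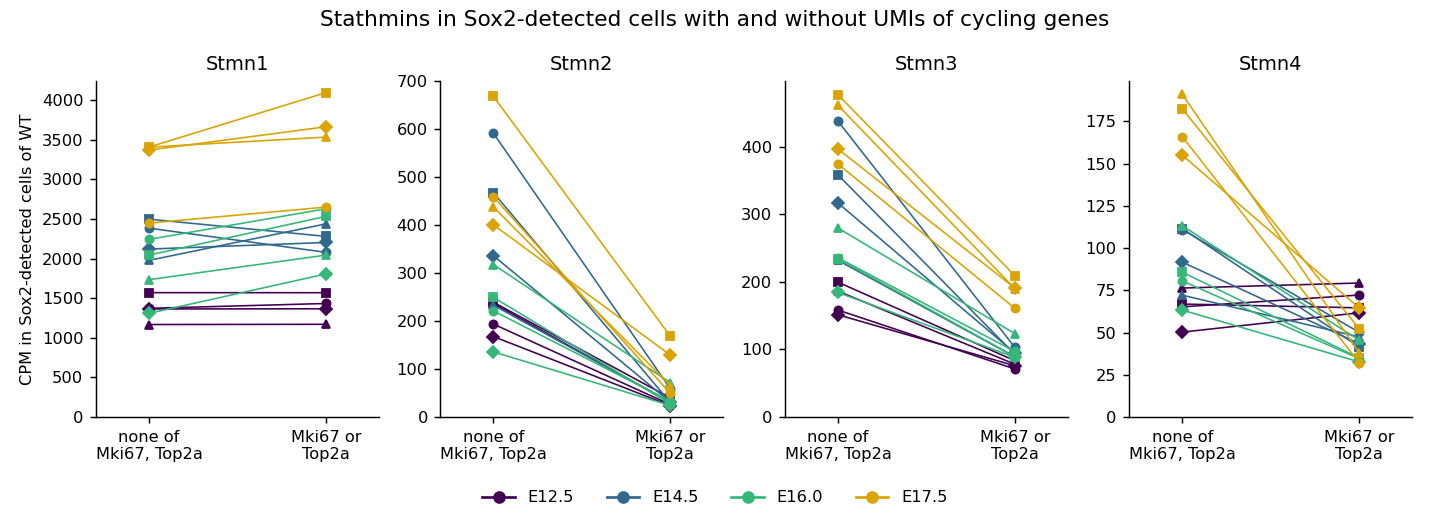
CPM of each stathmin gene in WT Sox2-detected cells with and without UMIs of Mki67 or Top2a, with a line joining the 2 values of a library, by stage. Stmn4 is at 69.5 and 64.7 CPM on average at E12.5 and at 46.6 and 174 CPM at E17.5.

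Stmn4 in Sox2-detected cells was higher in Chd8 het than in WT, most of all at E12.5. In Sox2-detected cells at E12.5 it read 70.5, 65.0, 78.8 and 59.4 CPM in WT M1, M2, F1 and F2 and 132, 107.5, 155 and 117 CPM in het. Every het library lay above every WT library, as was the case for 4.24% of genes in that direction, and within pairs the ratio lay between 1.65 and 1.97. At E14.5 the values were 79.8, 74.0, 55.9 and 64.5 CPM in WT and 96.5, 76.5, 68.0 and 75.8 CPM in het, and at E16.0 they were 50.3, 53.0, 72.9 and 43.3 and 51.5, 64.7, 80.9 and 72.7 CPM. At E17.5 WT read 91.6, 119, 116 and 101 CPM and het 95.1, 138.5, 133 and 104 CPM. Het was higher in 16 of 16 pairs, which 0.166% of genes also were, but the groups overlapped at the last 3 stages and the ratios of means there were 1.16, 1.23 and 1.10. The fitted log2 difference was 1.00 (SE 0.16) at E12.5, 0.21, 0.30 and 0.12 later, and 0.41 (SE 0.08) on average. This is the difference by which the family was chosen, so nothing is inferred from its size. The values rested on 329 to 4879 Stmn4 UMIs per library.

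**Figure D4:**
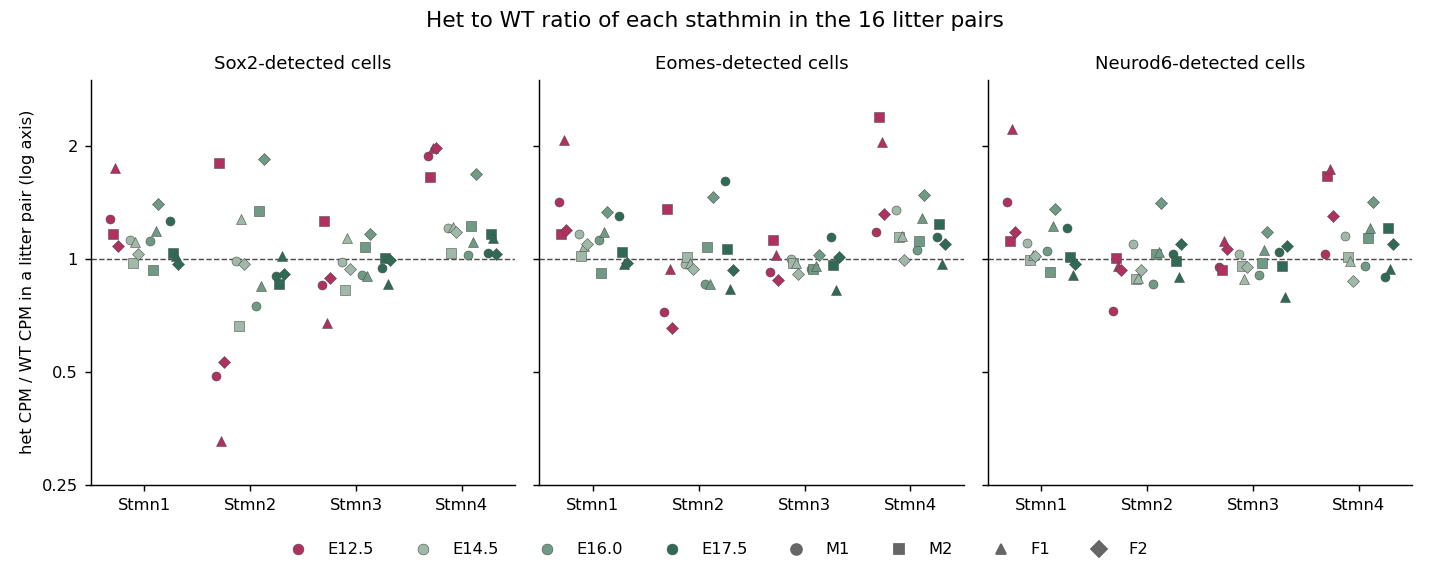
Ratio of het to WT CPM (log axis) within the 16 pairs of same-named embryos, for each stathmin gene in Sox2-, Eomes- and Neurod6-detected cells, by stage. For Stmn4 in Sox2-detected cells all 16 ratios are above 1, and those at E12.5 lie between 1.65 and 1.97.

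The difference in Stmn4 was of like size in the subsets of Sox2-detected cells at E12.5. In Sox2-only cells the means were 69.5 CPM (WT) and 129 CPM (het), a ratio of 1.86 without overlap of the groups (4.06% of genes). In cells with Mki67 or Top2a UMIs the ratio was 1.91 (no overlap, as for 4.04% of genes), and in those without it was 1.83 (no overlap, as for 3.68% of genes). Summed proliferation markers in Sox2-detected cells at E12.5 were 3967 to 4248 CPM in WT and 4312 to 4952 CPM in het, without overlap, and their part in the result was not tested. The summed radial glia markers had a ratio of 1.01 and the excitatory neuron markers 0.943. In Sox2-only cells at later stages the ratios were 1.08, 1.31 and 0.996, and het was higher in 13 of 16 pairs overall.

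Depth differed between the genotypes at E12.5, and Stmn4 was compared with that in view. Het M2, as deep as the WT libraries, read 107.5 CPM, the lowest of the het group and above the highest WT value of 78.8 CPM. Of its Sox2-detected cells 30.1% also held a Neurod6 UMI, against 10.7% to 20.4% in the WT libraries. The part of this difference was not tested. With het M2 alone kept at E12.5, the log2 difference at that stage was 0.61 in Sox2-detected and 0.66 in Eomes-detected cells. After every cell was thinned to 2000 UMIs, 14.2% of WT Sox2-detected cells at E12.5 (libraries from 11.2% to 15.3%) and 22.7% of het cells (19.8% to 25.8%) held a Stmn4 UMI, where 42.0% and 50.2% did at full depth, with mean library medians of 10480 and 7424 UMIs. In reference cells the thinned share was 0 of 94 WT cells, which allows a share of up to 3.19%, and 6.28% on average over the het libraries (91 cells). At full depth it was 8.75% and 19.3%, with mean library medians of 17337 and 7068 UMIs. More cells count as reference after thinning because fewer then hold a gate-gene UMI. The pooled level in reference cells was 5.03 CPM in WT (8 UMIs, 95% exact Poisson interval 2.17 to 9.90) and 16.97 CPM in het (13 UMIs, 9.04 to 29.0). Reference cells thus also read higher in het, with library means of 3.97 and 22.8 CPM where Sox2-detected cells had 68.4 and 128 CPM. The part of depth and of free RNA in the result was not tested.

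**Figure D5:**
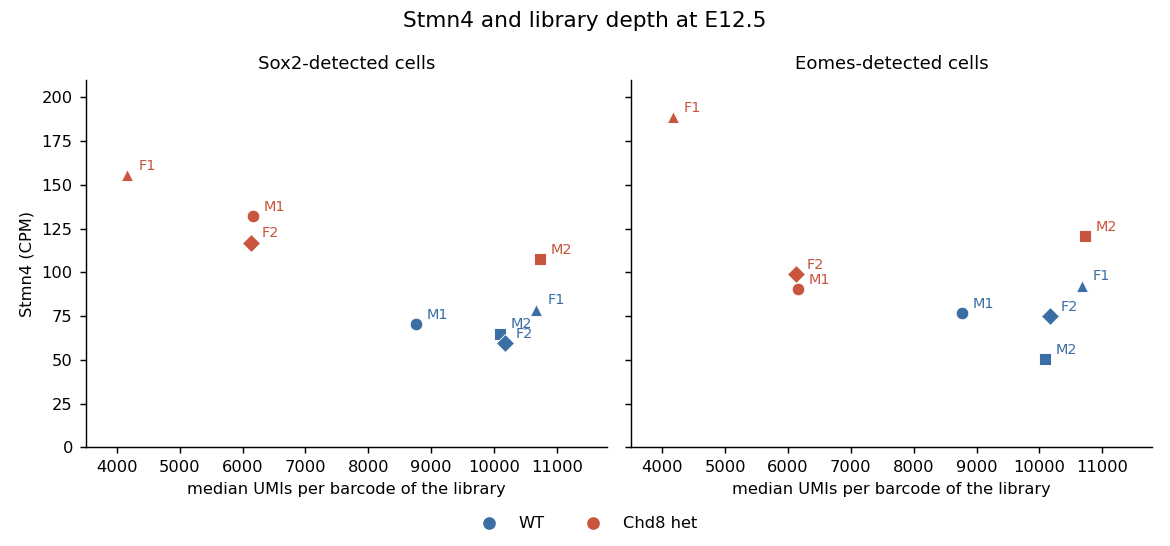
Stmn4 CPM in Sox2- and Eomes-detected cells at E12.5 against the median number of UMIs per barcode of the library, by genotype. Het M2, at 10727 UMIs per barcode, reads 107.5 CPM in Sox2-detected cells, above the 4 WT libraries (at most 78.8 CPM).

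Stmn4 had the same direction in the Eomes-detected set, most of whose cells also hold Neurod6 UMIs. In Eomes-detected cells at E12.5 it read 76.6, 50.5, 92.3 and 75.1 CPM in WT and 90.5, 120.5, 189 and 99.0 CPM in het. The groups overlapped through WT F1 and het M1, and the ratio of means was 1.69. Het was higher in 14 of 16 pairs over all stages, as were 1.46% of genes, with ratios of means of 1.16, 1.22 and 1.10 after E12.5. In Eomes-only cells it was higher in 11 of 16 pairs, with a ratio of 1.60 at E12.5, where the groups overlapped, and of 1.02 at E14.5. The fitted log2 difference averaged 0.35 (SE 0.08). The summed excitatory neuron markers in this set were 3152 to 3267 CPM in WT and 3295 to 3768 CPM in het at E12.5, without overlap, and their part in the result was not tested.

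Stmn1 also read higher in het than in WT at E12.5 in Sox2- and Eomes-detected cells. In Sox2-detected cells het read 1809, 1829.6, 2041 and 1482 CPM where WT read 1419, 1570.1, 1170.5 and 1367 CPM, with het F2 below WT M2. In Eomes-detected cells WT read 2397, 2482, 2011 and 2376 CPM and het 3395, 2890.2, 4160.4 and 2833 CPM, with no overlap, as for 2.62% of genes. The largest values in both sets were those of het F1, the shallowest library. Reference cells read higher in het as well, at 726 CPM in WT (95% exact Poisson interval 684 to 769) and 1004 CPM in het (934 to 1077) when pooled, with library means of 692 and 1166 CPM that overlapped between groups. Stmn1 is not limited to neurons, so reference cells may hold Stmn1 RNA of their own and give no measure of its free RNA. The part of depth and of free RNA was not tested here either. The log2 difference at E12.5 was 0.46 (SE 0.12) in Sox2-detected and 0.62 (SE 0.14) in Eomes-detected cells, and with het M2 alone kept it was 0.26 in Eomes-detected cells. Over all stages het was higher in 13 of 16 pairs in each set (3.22% and 3.46% of genes). In the exclusive sets it was higher in 10 of 16 pairs (Sox2-only) and 9 of 16 (Eomes-only), with ratios of 1.31 in both at E12.5 and of 0.989 and 0.934 at E14.5.

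For Stmn2 and Stmn3 the counts of pairs in progenitors were nearer an even split, and the groups overlapped at every stage. Stmn2 in Sox2-detected cells at E12.5 read 32.6, 139, 22.7 and 27.9 CPM in het against 66.9, 77.0, 69.3 and 52.7 CPM in WT, so that het M2 was the highest and the other 3 the lowest of all 8 libraries. All of the 3 low values were under the 121 CPM of the pooled het reference cells, as the WT values were under 105.5 CPM. Het was higher in 5 of 16 pairs in Sox2-detected and 6 of 16 in Eomes-detected cells. In Sox2-detected cells without interneuron-marker UMIs it was higher in 8 of 16. The ratios of means in Eomes-detected cells ran from 0.891 at E12.5 to 1.10 at E17.5. The share of all genes with such counts of pairs was not determined. Stmn3 read 78.7, 132, 66.5 and 81.1 CPM in het against 92.5, 105, 98.5 and 91.1 CPM in WT, again with M2 alone above WT, and was higher in 5 of 16 pairs in each set.

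In neurons the genotypes were compared in cells that share none with the progenitor sets, although they come from the same embryos. In Neurod6-only cells at E12.5, 0 of the 4 members passed edgeR's quasi-likelihood test, which called 8 of 13683 genes (0.0585%), with 1758 at an unadjusted p below 0.05. The log2 difference was 0.43 for Stmn1 (SE 0.14, adjusted p = 0.181), −0.35 for Stmn2 (SE 0.15, adjusted p = 0.301), −0.16 for Stmn3 (SE 0.10, adjusted p = 0.525) and 0.13 for Stmn4 (SE 0.16, adjusted p = 0.797). A fit with the pair as a block was not made in this subset. Stmn4 was at 252 CPM in WT and 260.4 CPM in het, a ratio of 1.03. Stmn1 had a ratio of 1.28 without overlap (1.7% of genes). Stmn2 read 2572, 2209.9, 2651 and 2599 CPM in WT and 1709, 2068, 1478 and 2208 CPM in het, lower in 4 of 4 pairs without overlap (4.95% of genes), a ratio of 0.744. Stmn3 was lower in 4 of 4 pairs with overlap, a ratio of 0.853.

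The whole Neurod6-detected set overlaps the progenitor sets, so its member values are a description with no test. At E12.5, 41.7% of its cells in WT and 31.6% in het also had a Sox2 UMI, and 51.0% and 42.9% an Eomes UMI. Stmn1 read 2765, 2698, 2284 and 2946 CPM in WT and 3921, 3005, 5066 and 3477 CPM in het, without overlap (2% of genes). Stmn4 read 125, 83.6, 141 and 121 CPM in WT and 129, 139, 245 and 158 CPM in het, with overlap but higher in 4 of 4 pairs, a ratio of 1.42.

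Over all genes, the test between genotypes in Neurod6-detected cells made few calls. At E12.5 it called 2 of 14582 genes (0.0137%), and 1828 had an unadjusted p below 0.05. DESeq2 called 406 genes, and with the matched pair in the model edgeR called 654 (444 higher, 210 lower). The 2 were Krt10 (log2 difference 0.77, adjusted p = 0.00815) and Chmp2a (0.58, adjusted p = 0.0433), named after their values were seen. At E14.5, E16.0 and E17.5 edgeR called 0 genes (0%), and 173, 163 and 482 had an unadjusted p below 0.05. DESeq2 called 2, 2 and 0 genes at these stages. Averaged over stages it called 32 (0.219%; 27 higher, 5 lower), DESeq2 65 and the blocked fit 128 (77 higher, 51 lower).

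The genes next to the members were compared at E12.5 in Sox2-detected cells. Trim35, 32.9 kb from Stmn4 and the nearest protein-coding gene on that side that passed the count filter, was at a log2 difference of −0.08 (SE 0.09) between het and WT. Adra1a on the other side, 274 kb away, was under 1 CPM, too low to compare. The neighbours of Stmn1 (Pafah2 and Paqr7), Stmn2 (Zc2hc1a and Hey1) and Stmn3 (Gmeb2 and Rtel1) had log2 differences from −0.20 (Pafah2, SE 0.15) to −0.00 (Zc2hc1a, SE 0.13).

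The members did not vary alike. Over the 48 WT sums (16 libraries by 3 sets, which share libraries and cells), log2 CPM of Stmn2 and Stmn3 correlated most (Pearson r = 0.935), followed by Stmn2 and Stmn4 (0.826), Stmn3 and Stmn4 (0.817), Stmn1 and Stmn3 (0.768), Stmn1 and Stmn4 (0.643) and Stmn1 and Stmn2 (0.580). Among 8474 genes, those with the profile most like Stmn1 were Ndufaf3, Brsk1, Pold4, Ttc9b and Shd (r from 0.914 to 0.888). Glra2, Cnr1, Ly6h, Tmsb4x and Gng2 were most like Stmn2 (0.956 to 0.938), and Crmp1, Actl6b, Dbndd1, Scrt1 and Sez6l2 most like Stmn3 (0.981 to 0.972). Crmp1 encodes a collapsin response mediator of growth cones and Actl6b a neuronal subunit of the BAF chromatin complex. Stmn4 was most like Serp2, Rac3, Ggct, BC051226 and Cbarp (0.966 to 0.938). These coefficients are descriptions over sums that share stage and depth.

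The partners of stathmins at the microtubule changed in both directions. Between Neurod6-only and Sox2-only WT cells, 31 of 42 microtubule-associated and microtubule-regulating proteins were higher and 7 lower, with a median log2 fold of 1.16 against 0.03 for all genes. This list, here and below, was drawn broadly: it includes Gap43, Basp1 and Marcksl1, and Tubb2b, which is also counted among the tubulins. Of all 14299 genes 6031 were called higher and 5836 lower here, 83% together, so a call alone does not set a list apart. Mapt (tau) was higher by 3.80 (SE 0.11) and Dcx (doublecortin) by 3.44 (SE 0.10), and the mitotic factors Kif2c and Tpx2 were at −4.12 and −4.11. Of 12 tubulins, the polymer's subunits, 7 were higher and 5 lower (median 0.67). Tuba4a was at 4.59 and Tubb3, the neuronal beta-tubulin, at 3.31, against −4.08 for Tuba1c and −2.27 for Tuba1b. Of 15 kinases and phosphatases known to act on stathmins, 8 were higher, led by Camk4 (3.42) and Mapk10 (2.33), the neuronal JNK, and 5 lower, led by the mitotic kinases Aurkb (−4.56) and Cdk1 (−4.29). The repressor Rest was at −2.26, and of the 12 genes of its list 5 were higher and 6 lower (median −0.27). Each of these values passed edgeR's quasi-likelihood test, with adjusted p between 1.54e-33 (Aurkb) and 2.87e-13 (Camk4).

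The same lists were counted between stages. From E12.5 to E17.5 in WT Sox2-detected cells, 24 of 42 microtubule proteins rose and 7 fell, where 59.1% of all genes were called (median 0.41 against 0.05 for all genes), with Mapt at 3.94 (adjusted p = 2.84e-08) and Dcx at 3.11 (adjusted p = 8.22e-11). Tubulins were split, 5 up and 5 down of 12 (median −0.14), with Tubb2a at 2.00 (adjusted p = 2.16e-11) and Tuba1b at −0.91 (adjusted p = 6.43e-06). Of the kinases and phosphatases 3 of 15 rose, Mapk10 by 3.40 (adjusted p = 2.41e-10), and 6 fell. Of the 12 genes of the REST list, 3 rose and 4 fell in Sox2-detected cells (median −0.01), and 4 rose and 4 fell in each of the other sets (median 0.13 in Eomes-detected and −0.16 in Neurod6-detected cells). Rest itself fell by 1.51 on the log2 scale (adjusted p = 1.17e-06), by 2.35 in Eomes-detected cells (1.13e-09) and by 2.09 in Neurod6-detected cells (8.61e-08), all by edgeR's quasi-likelihood test. In Eomes-detected cells 2 of 12 tubulins rose and 8 fell (median −0.65), with 9 up and 11 down of 42 microtubule proteins (median 0.02, with 50% of all genes called), and in Neurod6-detected cells 3 rose and 7 fell (−0.61), with 20 up and 8 down (0.40, with 59.9% of all genes called).

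In cycling Sox2-detected cells microtubule proteins were lower more often than higher, and tubulins were split. Of the 42 microtubule proteins 29 were lower and 8 higher in cells with Mki67 or Top2a UMIs, where 66.6% of all genes were called (median −0.26 against −0.01 for all genes), with Mapt at −2.58, Dcx at −1.77 and Kif2c at 3.59. Tubulins were split 6 to 6, with Tubb3 at −1.65 and Tuba1c at 2.81, and of the kinases 7 were higher and 4 lower. Cdk1 (3.72) is itself a cycle gene, as is Aurkb (4.65). Of the REST list 7 of 12 were higher and 3 lower (median 0.31). Rest was higher, by 0.74 (SE 0.06, adjusted p = 1.52e-11 by edgeR's quasi-likelihood test). Between genotypes in Sox2-detected cells at E12.5 the list medians lay between −0.09 and −0.02, with −0.02 for all genes.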

How the data were processed

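Single-cell RNA of 32 embryos was sequenced with 10x Genomics 3′ v2 chemistry. The authors deposited UMI counts per gene and barcode for each library, and the submitters' processing notes name STAR 2.7.9a, STARsolo, Cell Ranger and the build mm10. The strand setting of the counting is not given in the sources used here. Gene positions and sequences were taken from GENCODE M21 (GRCm38), to which 32158 of 32285 gene IDs matched (99.6%).

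Kept were 143697 of 145082 barcodes, those reaching 1000 UMIs and 500 genes with no more than 10% of UMIs from mitochondrial genes. Doublets were scored against simulated doublets (0.5 per cell, 2000 variable genes, 30 components) at an assumed 0.8% per 1000 cells, and 5471 were removed. Cells are not replicates: counts were summed per library and set of cells. Sums were tested with edgeR 4.0.16 (R 4.3.3; quasi-likelihood test, filterByExpr, TMM, all groups in 1 model), with Benjamini-Hochberg adjustment over all genes tested and a threshold of 0.05. Contrasts between sets of WT cells had the library as a block. The same steps were tested on simulated data. Python steps used numpy 2.4.6, scipy 1.17.1, scikit-learn 1.9.0 and pandas 2.3.3. A count of 0 in a set of cells was taken to allow 3 counts. Likeness used log2(CPM + 1) and genes with a mean of at least 10 CPM. Intervals cover counting error only.

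Genotypes were tested for the members in Neurod6-only cells because Neurod6-detected cells overlap the progenitor sets. Alternatives were DESeq2 1.42.0, its size factors in edgeR, no filter on low counts, other gates, thinning to 2000 UMIs (1982 cells were shallower), no doublet removal, no cell filter, the matched pair as a block, only the compared groups, and each library left out. Chosen after seeing the data were the removal of cells with interneuron-marker UMIs, of 3 libraries apart at E17.5 and of 3 shallow het libraries at E12.5, and the test of set contrasts between E17.5 and E12.5. The members, the marker lists and the lists of tubulins, microtubule proteins, kinases and phosphatases, and REST with its partners were chosen with earlier results of these data known. Named beside the members were at most 2 called genes per list and direction with the largest fold, the 5 most alike genes, and the nearest protein-coding gene on either side that passed the count filter. The labels state litter- and sex-matched pairs but not which replicate names form one, so same-named embryos were taken as pairs. Deviations from the group means of same-named embryos correlated above 0.1 in 15 of 16 pairs in Sox2-detected cells and in 14 of 16 in Eomes- and Neurod6-detected cells. The exception in Sox2-detected cells was F1 at E17.5 (r = 0.071). Same-named embryos also share their sex, so these correlations cannot show that the names mark litter pairs. A planned contrast between kinds of late neurons is not reported here.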

Additional observations from a re-analysis of the deposited data

Results flagged for a closer look

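In 7 of 96 groups of 4 libraries a sample lay far from the other 3, where chance gives about 1 in 20, or 4.8. Stmn1 was highest by such a gap in het M1 at E16.0, at 2783 CPM in Sox2-detected and 3707 CPM in Eomes-detected cells, and in het M2 at E17.5 in Eomes-detected cells, at 5053 CPM. Stmn2 in Sox2-detected cells stood out in het M2 at E12.5 (139 CPM), het M1 at E14.5 (315 CPM) and WT M2 at E17.5 (425 CPM). Stmn3 in Neurod6-detected cells was lowest in WT F2 at E16.0, at 523 CPM.

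Contrasts between sets of WT cells differed between E17.5 and E12.5, by edgeR's quasi-likelihood test of the difference itself. For Eomes-only against Sox2-only cells the difference was −0.75 for Stmn1, −4.64 for Stmn2, −2.01 for Stmn3 and −1.36 for Stmn4 on the log2 scale. For Neurod6-only against Sox2-only cells it was −0.56 for Stmn1, −4.76 for Stmn2, −2.55 for Stmn3 and 0.58 for Stmn4. The values of Stmn2 rest on a Sox2-only level at E12.5 below that of reference cells, so they are no exact folds.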

How the results depend on the processing

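Of 1028 alternative values of the members (1 library left out not counted), 66 had the opposite sign, in 30 of 92 results, and of 2624 with 1 library left out 78. Most were differences between genotypes. Stmn2 between genotypes in Sox2-detected cells at E12.5, the farthest of them, reached 1.02 without the 3 shallow het libraries. Among those of Stmn4 or past the threshold were the following. The stage change of Stmn4 was −0.12 in Sox2-detected cells with at least 2 Sox2 UMIs and −0.80 in Eomes-only cells. In Neurod6-detected cells that of Stmn2 was −0.43 with at least 2 UMIs and −0.79 in Neurod6-only cells, and that of Stmn3 −0.56 in the latter. Stmn4 between genotypes was at −0.022 in Sox2-only cells at E17.5 and −0.0038 in Eomes-only cells at E14.5. In Sox2-detected cells at E17.5 it ranged from −0.0024 (without het M2) to 0.20 (without het M1) when 1 library was left out.

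The count of genes called between genotypes in Neurod6-detected cells at E12.5 (2) was the least stable. It was 406 with DESeq2, 654 with the matched pair as a replicate block, 93 without the 3 libraries apart at E17.5, 8 in Neurod6-only cells and 0 with only the compared groups. It was 1 with no filter on low counts, a gate of 2 UMIs, thinning, no doublet removal, no cell filter, or without the 3 shallow het libraries. Leaving out 1 library gave 0 to 1408, the latter without het M2 at E12.5. At E14.5 and E16.0 (0 each) DESeq2 called 2 and 2, and the replicate block 1 and 1; at E17.5 (0) the block called 1 and leaving out 1 library 0 to 1. The count averaged over stages (32) was 65 with DESeq2, 128 with the replicate block, 10 in Neurod6-only cells, 14 after thinning and 17 without the shallow libraries, and 26 to 59 with 1 library left out (59 without het M2 at E12.5). The cause was not tested.

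Stage calls in Eomes-detected cells (6558) were 1426 in Eomes-only cells and 3766 after thinning, where fewer cells enter. The Eomes-only difference between stages (1041 genes) gave 1585 without the count filter and 662 (without WT M2 at E17.5) to 1073 with 1 library left out.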
